A study of Mus musculus with 6 samples.

Results

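The aryl hydrocarbon receptor pathway was followed through 7 genes in mouse B lymphoma cells that carried a hairpin against the helicase gene Dhx9 or a control hairpin. The genes were the receptor Ahr, its partner Arnt, its repressor Ahrr and the targets Cyp1a1, Cyp1b1, Tiparp and Nqo1. They were taken by symbol from the platform annotation, and all 7 of 7 were found among 18784 genes, each with 1 probe set. The group was selected on the same hairpin difference that is described below, since it was proposed with earlier results of these arrays known. The members' differences are therefore a description, given with the error of the measurement and without a p-value.

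The receptor is a ligand-activated transcription factor of the bHLH-PAS family. It waits in the cytoplasm in a complex with HSP90 and p23. Once a ligand such as dioxin, a dietary indole or the tryptophan metabolite kynurenine binds, it enters the nucleus, pairs with ARNT and binds response elements near its target genes. Cyp1a1 is the classical target, and the products of Ahrr and Tiparp restrain the receptor in return. In B cells the receptor is known for effects of its ligands on differentiation and antibody production.

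All cells were lymphomas labelled Arf-/-Eu-myc/Bcl-2. In such cells the MYC oncoprotein is driven from an immunoglobulin enhancer and the tumour suppressor Arf is missing. The sample descriptions do not say how Bcl-2 was brought into the cells. They grew in culture over a feeder layer of irradiated Arf-/- embryonic fibroblasts. The 3 control arrays came from cells transduced with the shRNA Rluc.713, named for Renilla luciferase, and the other 3 from cells with the shRNA Dhx9.1241, so each arm rests on 1 hairpin sequence. Total RNA was hybridised to Affymetrix arrays, and no drug or receptor ligand is named for any of the 6 samples. The labels do not say whether replicates were separate cultures, so errors measure the spread between arrays, which may be technical.

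The arrays matched the hairpin and not the titles, which name Dhx29. The Dhx9 level was 1.99-fold lower with Dhx9.1241 (log2 difference -0.99, SE 0.053, adjusted p = 0.000129 in limma), whereas Dhx29 differed by 0.04 (95% interval -0.08 to 0.17). The 9 measured B cell markers had a mean log2 level of 12.29 to 12.38 on the control arrays and 12.22 to 12.29 on the Dhx9.1241 arrays. Of these 9 markers, 1 was called lower, the pre-B cell gene Vpreb3 (log2 difference -0.57, adjusted p = 0.000891 in limma), and 8 were not called. The groups did not overlap for 5 of the 9, against 20.1% of all genes. Of these, Vpreb3, Ebf1 (-0.17), Cd22 (-0.11) and Cd79b (-0.07) were lower, and Ms4a1, the gene of CD20 (0.31), was higher. Before adjustment, 2 markers were lower, Vpreb3 included, and 1 was higher in limma at p under 0.05. On the second principal component, control replicate 1 lay at 16.74, away from both other controls (-4.81 and -5.29), and values without it are given beside the results it touches.

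The receptor's own transcript was higher with the Dhx9 hairpin. The log2 level of Ahr (probe set 11622_at) was 8.82, 8.85 and 8.73 on the control arrays and 9.66, 9.53 and 9.58 on the Dhx9.1241 arrays. All Dhx9.1241 arrays lay above all controls, and the arrays of a group lay close together. The means were 8.80 ± 0.062 and 9.59 ± 0.066 (SD, n = 3), a log2 difference of 0.79 (SE 0.057, 95% interval 0.66 to 0.92) or 1.73-fold. In order of size this was number 30 among the 389 genes called higher. The call rule was an adjusted p under 0.05 in limma's two-sided test, corrected over all genes. The difference was 0.80 without control replicate 1 and stayed between 0.75 and 0.82 when any 1 array was left out.

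Of the 7 members, Ahr was the 1 that met the call rule, in the higher direction, against 3.14% of all genes in either direction and 2.07% in the higher one. The groups did not overlap for 2 members, Ahr and Nqo1, against 20.1% of all genes. The median log2 difference was 0.07 over the members and 0.00 over all genes. The group was selected on this hairpin difference, so these counts are a description and no evidence for a change of the group. The plot of members by array shows each value.

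**Figure D1:**
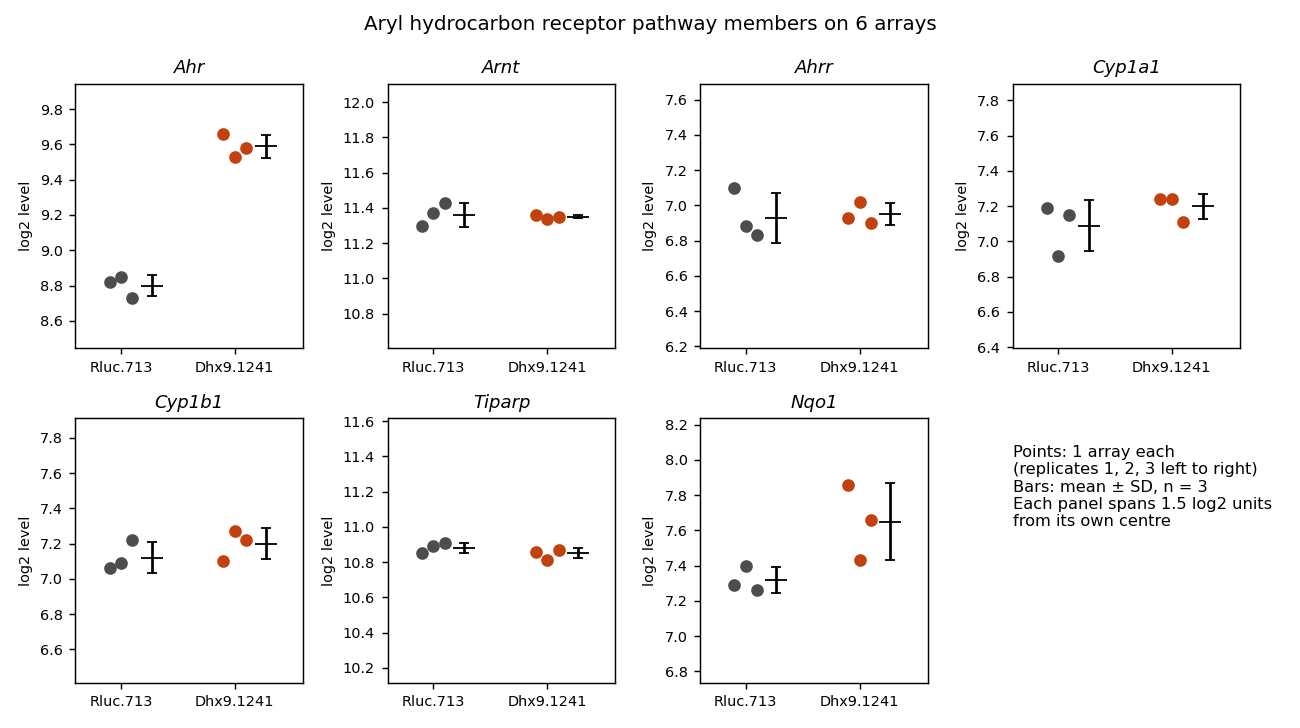
Log2 level of the 7 pathway members on each of the 6 arrays, by hairpin; points are single arrays and bars the mean ± SD (n = 3), and every panel spans the same log2 range around its own centre. Ahr separates widely between the hairpins (8.80 and 9.59 in the mean), Nqo1 separates narrowly with a wide spread among the Dhx9.1241 arrays, and the other 5 members overlap.

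The receptor's partner overlapped between the hairpins. Arnt encodes the protein that pairs with the ligand-bound receptor, and with the hypoxia factors, to bind DNA. Its log2 level (11863_at) was 11.30, 11.37 and 11.43 in the controls and 11.36, 11.34 and 11.35 with Dhx9.1241. The Dhx9.1241 arrays lay inside the range of the controls. The means were 11.36 ± 0.067 and 11.35 ± 0.009 (SD, n = 3), and the log2 difference was -0.02 (95% interval -0.13 to 0.10), which was -0.05 without control replicate 1 and turned in sign, to 0.02, without control replicate 3.

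Ahrr encodes a repressor that resembles the receptor, competes with it for ARNT and is itself induced by it. The log2 level (11624_at) was 7.10, 6.88 and 6.83 in the controls and 6.93, 7.02 and 6.90 with Dhx9.1241. Control replicate 1 was the highest of all 6 arrays, and the groups overlapped. The log2 difference was 0.01 (95% interval -0.16 to 0.19). It was 0.09 without control replicate 1 and -0.01 after centring the arrays on their medians, so no direction can be given.

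The xenobiotic-metabolising targets showed no separation of the hairpins. Cyp1a1, the cytochrome whose induction is the standard readout of receptor activity, had log2 levels (13076_at) of 7.19, 6.92 and 7.15 in the controls and 7.24, 7.24 and 7.11 with Dhx9.1241. The lowest array was control replicate 2, and the Dhx9.1241 arrays overlapped the other controls. The means were 7.09 ± 0.147 and 7.20 ± 0.071 (SD, n = 3), a log2 difference of 0.11 (95% interval -0.07 to 0.29), which was 0.16 without control replicate 1 and 0.02 without control replicate 2. Cyp1b1, a related cytochrome that metabolises oestrogens and polycyclic hydrocarbons and is also common in fibroblasts, stood (13078_at) at 7.06, 7.09 and 7.22 in the controls and 7.10, 7.27 and 7.22 with Dhx9.1241. Its groups overlapped too, with a log2 difference of 0.07 (95% interval -0.08 to 0.23). That difference was 0.04 without control replicate 1, 0.03 without Dhx9.1241 replicate 2, and 0.12 without control replicate 3 or without Dhx9.1241 replicate 1.

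Tiparp encodes an ADP-ribosyltransferase that is induced by the receptor in many cell types and modifies it in a negative feedback. Its log2 level (99929_at) was 10.85, 10.89 and 10.91 in the controls and 10.86, 10.81 and 10.87 with Dhx9.1241. These were among the tightest values of the 7 members, with SDs of 0.030 and 0.028 (n = 3), and the groups overlapped. The log2 difference was -0.03 (95% interval -0.14 to 0.07), and -0.05 without control replicate 1. The interval with all arrays held neither a rise nor a fall of the size seen for Ahr.

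Nqo1 encodes a quinone reductase that responds to the receptor and, through antioxidant response elements, to NRF2. Its log2 level (18104_at) was 7.29, 7.40 and 7.26 in the controls and 7.86, 7.43 and 7.66 with Dhx9.1241. Every Dhx9.1241 array lay above every control, but replicate 2 only just, at 7.43 against 7.40 in control replicate 2. The means were 7.32 ± 0.073 and 7.65 ± 0.217 (SD, n = 3), a log2 difference of 0.34 (SE 0.102, 95% interval 0.10 to 0.57). Nqo1 did not meet the call rule with all arrays or in any alternative run on it. Without Dhx9.1241 replicate 2 the difference was 0.45, without Dhx9.1241 replicate 1 it was 0.23, and without control replicate 1 it was 0.32.

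The upper ends of the 95% intervals of the 6 members other than Ahr ran from 0.07 for Tiparp to 0.57 for Nqo1. The group was selected on these differences, and whether they differ from each other was not tested. Ahrr, Cyp1a1, Cyp1b1 and Nqo1 had mean levels under the median of all genes, 8.47. The deposited values carry no detection call, and changes of dim probe sets are compressed by the summarising method. The intervals of these 4 therefore bound the difference in deposited values and not in transcript number. Tiparp and Arnt had levels above that median.

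RefSeq promoter sequences (build GRCm38.p6) matched 6 of the 7 members, all but Ahr. They were searched over 250 bases before and 50 after the start, on both strands, for the letters GCGTG, the core of the element bound by the receptor with ARNT. Of the 6 windows 5 held it, all but that of Nqo1, against 32.4% of 32851 promoter windows. The longer form TNGCGTG, which contains the core, was found in the Ahrr window alone of the 6, against 5.07% of all windows. The antioxidant element TGACNNNGC was found in the Arnt window alone, against 12.4%. Bases outside the windows were not searched, so an element of Nqo1 that lies elsewhere would be missed. The 250 bases before the start are shown for Cyp1a1, Tiparp and Ahrr, the induced genes that are the usual readouts of the receptor, 5′ to 3′ on the gene's strand, with the core in capitals in either orientation.
Cyp1a1, chr9:57697363-57697612, plus strand: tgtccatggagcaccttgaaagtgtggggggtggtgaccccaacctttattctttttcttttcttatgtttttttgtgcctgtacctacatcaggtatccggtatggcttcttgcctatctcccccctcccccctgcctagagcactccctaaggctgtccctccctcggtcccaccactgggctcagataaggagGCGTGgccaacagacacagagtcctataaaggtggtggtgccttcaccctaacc
Tiparp, chr3:65528197-65528446, plus strand: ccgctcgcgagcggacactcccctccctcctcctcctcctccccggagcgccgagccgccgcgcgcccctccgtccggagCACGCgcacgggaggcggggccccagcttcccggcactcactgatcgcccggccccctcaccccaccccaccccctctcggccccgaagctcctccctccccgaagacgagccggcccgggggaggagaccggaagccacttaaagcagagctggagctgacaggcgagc
Ahrr, chr13:74292332-74292581, minus strand: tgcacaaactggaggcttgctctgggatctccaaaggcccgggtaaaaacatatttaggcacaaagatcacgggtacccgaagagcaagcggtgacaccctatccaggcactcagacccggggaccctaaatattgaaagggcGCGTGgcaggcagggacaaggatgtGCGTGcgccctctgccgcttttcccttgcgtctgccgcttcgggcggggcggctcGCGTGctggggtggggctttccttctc
The Cyp1a1 window held 1 core, 54 bases before the start, and the Tiparp window 1 in reverse orientation, 170 bases before it. The Ahrr window held 3, at 107, 82 and 27 bases before the start. The last of these is the longer form. As background, the well-studied enhancer of Cyp1a1 lies farther upstream than this window. Such letters are a description of the window and not a binding site, and none of these 3 genes separated the hairpins.

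The rest of the pathway was read from lists written from general knowledge, with 80 of 91 genes measured. Of these 80, 1 was called higher, 2 were called lower and 77 were not called, 3 genes in all, and their median log2 difference was -0.01 against 0.00 over all genes. That is 3.75% of the 80, near the 3.14% of all genes. The plot of the lists shows each gene.

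**Figure D2:**
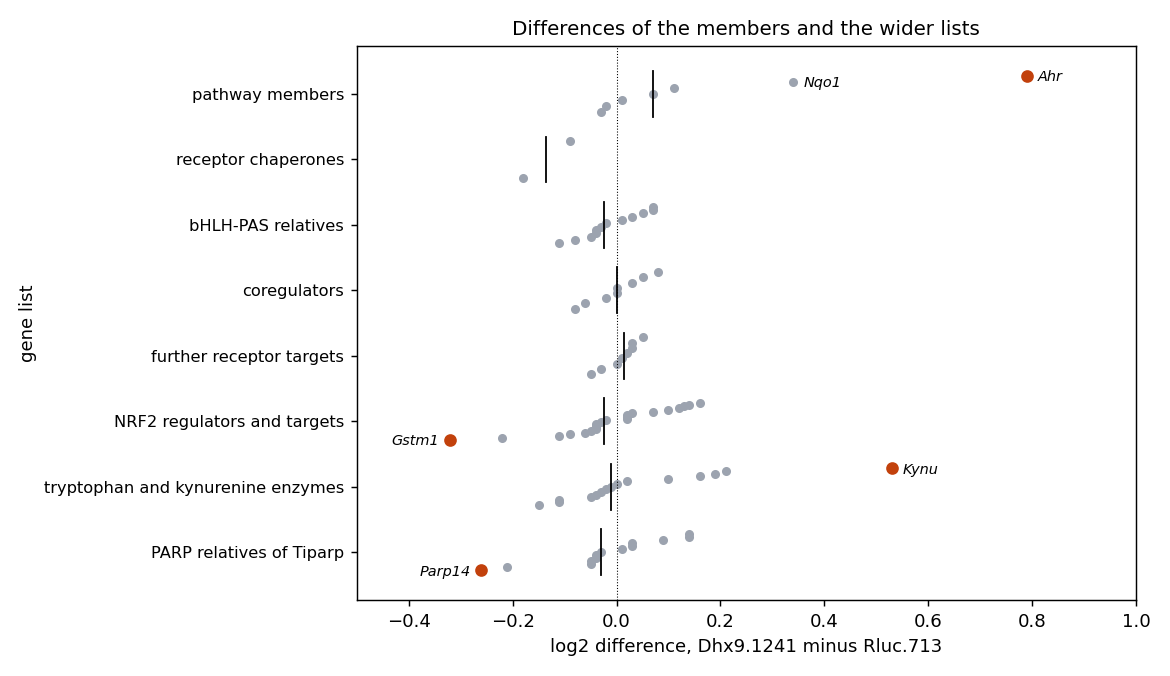
Log2 difference (Dhx9.1241 minus Rluc.713) of the 7 members and of 80 genes in the wider lists; each point is a gene, black bars are list medians and orange points met the call rule (adjusted p under 0.05 over all genes). Ahr (0.79) and Kynu (0.53) stand to the right, Gstm1 (-0.32) and Parp14 (-0.26) to the left, and most genes lie near 0; Nqo1 is named but was not called.

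The proteins that hold and assist the receptor were not called. Of the 2 measured chaperone genes, Ptges3, which encodes p23, had a log2 difference of -0.18 (SE 0.057, adjusted p = 0.181 in limma), with groups that did not overlap, and Hsp90aa1 -0.09. None of 12 genes of the bHLH-PAS family was called or had an unadjusted p under 0.05 in limma. Over all 18784 genes, 1597 were higher and 1058 lower at that unadjusted threshold, so a short list may hold none. The differences of the 12 ran from -0.11 for Npas3 to 0.07 for Npas1, with Hif1a, the hypoxia factor that also pairs with ARNT, at 0.01. None of 8 coregulator genes was called or had an unadjusted p under 0.05, with Ep300, a histone acetyltransferase, at -0.08 and Crebbp at 0.00. The groups did not overlap for 1 of the 8, Ncoa2 (0.08), against 20.1% of all genes.

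Further genes known as receptor targets were not called either. None of 8 measured passed or had an unadjusted p under 0.05 in limma, where 1597 of all 18784 genes were higher and 1058 lower. A list of 8 is too short to read a count of none as a result. All 8 had mean levels under the median of all genes, 8.47, from 6.04 for Serpinb2 to 8.02 for Gsta2. Changes of dim probe sets are compressed, as for the dim members, so small differences here bound deposited values and not transcript number. The log2 differences of the 8 ran from -0.05 for Scin, an actin-severing protein, to 0.05 for Cyp1a2, the sister gene of Cyp1a1. Aldh3a1, an aldehyde dehydrogenase, stood at 0.02 and Xdh, xanthine dehydrogenase, at 0.03. No member of this list had groups without overlap, against 20.1% of all genes.

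NRF2, which regulates Nqo1 too, has many other targets in glutathione and thioredoxin metabolism. Of 22 measured NRF2 regulators and targets, none was called higher, 1 was called lower and 21 were not called. The gene that fell was Gstm1, a glutathione S-transferase, which lay at 9.98, 10.10 and 10.08 in the controls and 9.78, 9.75 and 9.67 with Dhx9.1241. All Dhx9.1241 arrays lay below all controls, with a log2 difference of -0.32 (SE 0.057, adjusted p = 0.0231 in limma). The call was lost without any 1 of 5 arrays (adjusted p from 0.0731 without Dhx9.1241 replicate 1 to 0.106 without Dhx9.1241 replicate 3) and kept without control replicate 1 (0.0102). Gstm1 belongs to a family of similar genes whose transcripts the probes may share. Nfe2l2, the gene of NRF2 itself, had a difference of 0.12, with groups that did not overlap, and Hmox1, haem oxygenase, 0.13. Neither was called, nor was Gclm (-0.04) or Srxn1 (-0.06). Over the list, the groups did not overlap for 6 of 22 genes, against 20.1% of all genes, among them Gsr (0.14) and Prdx1 (-0.22). Before adjustment, 2 genes were higher and 2 were lower in limma at p under 0.05, Gstm1 included.

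Among the enzymes of tryptophan breakdown, which make and consume kynurenine, 1 of 15 was called higher and 14 were not called. Kynu encodes kynureninase, which cleaves kynurenine and its hydroxylated form. Its log2 level was 6.29, 6.36 and 6.22 in the controls and 6.73, 6.85 and 6.89 with Dhx9.1241. The groups were far apart relative to their spread, although all values were low on the array. The means were 6.29 ± 0.068 and 6.82 ± 0.085 (SD, n = 3), a log2 difference of 0.53 (SE 0.062, 95% interval 0.39 to 0.67, adjusted p = 0.00391 in limma). Kynu was called in all 6 fits without 1 array (adjusted p from 0.00522 to 0.0288). Ido1 (-0.04), Ido2 (0.00) and Tdo2 (-0.02), which open the tryptophan ring, were not called, nor was Il4i1 (-0.03), an amino acid oxidase whose products feed the receptor. Slc7a5, a transporter of large amino acids, stood at -0.15, and Kyat1, which turns kynurenine into kynurenic acid, at 0.21. Neither was called, but the groups of each did not overlap, as for Haao (0.19) and Qprt (0.16). Over the list, the groups did not overlap for 6 of 15 genes, against 20.1% of all genes. Before adjustment, 4 genes were higher, Kynu included, and 1 was lower in limma at p under 0.05.

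Tiparp belongs to the PARP family, and 1 of its 13 measured relatives fell while 12 were not called. That gene was Parp14, a mono-ADP-ribosyltransferase linked to interleukin signalling, whose fall was known when the list was written. It lay at 9.88, 10.03 and 10.00 in the controls and 9.75, 9.69 and 9.68 with Dhx9.1241. The groups did not overlap, and the log2 difference was -0.26 (SE 0.056, adjusted p = 0.0484 in limma). The call was lost without any 1 array other than control replicate 1 (adjusted p 0.132 to 0.18) and after centring the arrays on their medians (0.0656). Parp12 and Zc3hav1, the relatives closest to Tiparp in domain structure, had differences of 0.03 and -0.04 and were not called. Over the list, the groups did not overlap for 5 of 13 genes, against 20.1% of all genes. Before adjustment, 1 gene was higher and 2 were lower in limma at p under 0.05, Parp14 included.

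**Figure D3:**
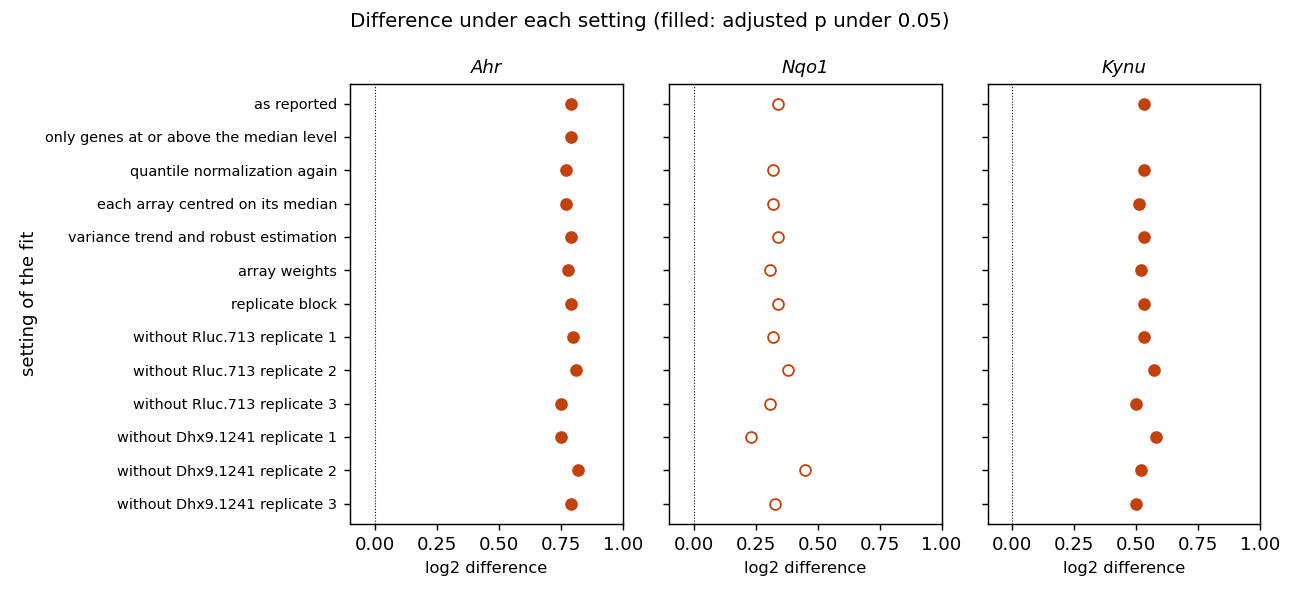
Log2 difference of Ahr, Nqo1 and Kynu under each setting of the fit (rows), with filled circles for an adjusted p under 0.05 and open circles otherwise; Nqo1 and Kynu have no value where only genes at or above the median level were tested. Ahr stays between 0.75 and 0.82 and filled throughout, Kynu is filled wherever tested, and Nqo1 ranges from 0.23 to 0.45 and is open throughout. The members and lists were chosen with earlier results of these arrays known, so filled circles describe the processing and are no separate evidence.

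Among 739 genes whose SD over the 6 arrays was at least 0.2, Ahr included, the pattern closest to that of Ahr by Pearson correlation was that of Prkcb (r = 0.997 over 6 arrays), the gene of protein kinase C beta in B cell receptor signalling. Next came the adaptor gene Sh2d2a (0.996), Snn (0.996), Tspoap1 (0.996) and the nucleosome-binding protein gene Hmgn3 (0.995). Prkcb rose from 10.64 ± 0.029 to 11.31 ± 0.083 (SD, n = 3). The differences of the other 4 were 0.71, 0.42, 0.80 and 0.44. The 6 points form 2 groups, so these correlations mainly restate the hairpin difference, and 124 genes had an r of at least 0.95.

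Markers of other cells that can express Ahr were set beside it. In these cultures fewer cells of a type and less RNA per cell cannot be told apart. For the feeder cell type, 0 of 18 fibroblast markers were called (before adjustment, 2 were lower in limma at p under 0.05). Their mean log2 level was 8.17, 8.01 and 8.02 in the controls and 8.04, 8.03 and 8.02 with Dhx9.1241. The high control value was that of replicate 1, and without it the controls lay at 8.01 and 8.02. Of 14 myeloid markers, 4 fell and none rose, 28.6% against 3.14% of all genes. Before adjustment, 5 were lower and 1 was higher in limma at p under 0.05, the higher one being the integrin gene Itgam (0.21), whose groups did not overlap. The 4 that fell were Lyz2 (-1.31), Csf1r (-0.45), Tyrobp (-0.37) and Fcer1g (-0.32). The mean level of the myeloid list was 8.26 to 8.30 in the controls and 8.07 to 8.09 with Dhx9.1241. None of 10 T and NK cell markers was called (1 higher at an unadjusted p under 0.05). Their mean was 7.28, 7.19 and 7.18 in the controls and 7.22, 7.24 and 7.24 with Dhx9.1241. Here too control replicate 1 was the highest, and without it every Dhx9.1241 mean lay above the controls. The values are on a log2 scale and none is at 0, so absence of a marker cannot be read from them. The part of these cells in the Ahr difference was not tested beyond these values.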

How the data were processed

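The deposited table holds log2 values made by the authors with RMA (robust multi-array average), as the submitters' processing notes name it, which corrects background, normalizes arrays together and summarises each probe set. For its version, the probe set definition and the genome build, nothing is given in the sources used here. That values are log2 was read from their range (3.97 to 14.6, array medians 8.43 to 8.51).

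Of 21212 probe sets, 18786 had 1 gene symbol, 6 several and 2420 are unnamed here; 18775 symbols were looked up by Entrez number. With 1 probe set per gene (the highest mean), 18784 genes were tested, with no filter on dim genes. The difference Dhx9.1241 minus Rluc.713 (3 arrays each) was fitted with R 4.3.3 and its package limma 3.58.1 (functions lmFit, eBayes), two-sided, with Benjamini-Hochberg adjustment over all genes and no covariate. A fold is the log2 difference taken out of the log scale. The fit was checked on simulated data. Alternatives were a filter on dim genes, another normalization, centring, another variance model, weights, the replicate number as a block and each array left out. The number of arrays limits the precision.

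The members and lists were chosen with earlier results of these data known. Named genes were the 7 members, Dhx9 and Dhx29, up to 3 called genes per list or else the one with the largest difference, and the 5 patterns most like Ahr (SD of at least 0.2, no clone or predicted names); other list genes are examples chosen after their values were seen. Of the lists, 11 pathway genes are not analysed here.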

Additional observations from a re-analysis of the deposited data

How the results depend on the processing

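Of the 12 alternatives, Ahr met the call rule in all, and among the 7 members the count called was 1 in each. The group was selected on this difference in the same 6 arrays. These calls therefore describe how the value depends on processing and are no separate evidence for it. Arnt, Ahrr, Cyp1a1, Cyp1b1, Tiparp and Nqo1 met it in none; the filter on dim genes left out Ahrr, Cyp1a1, Cyp1b1, Nqo1 and Kynu. The signs of both Ahrr and Arnt, which were near 0, turned. Ahrr was -0.01 with arrays centred on their medians and ran from -0.04 to 0.09 without 1 array, and Arnt ran from -0.05 to 0.02. The cause was not tested.

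Over all genes, 389 were higher and 201 lower. The counts were 609 and 382 when genes under the median level were left out (fewer genes tested), 673 and 466 for limma's robust fit with a variance trend, 669 and 542 when arrays were weighted, and 353 lower after quantile normalization again. Without 1 array they ran from 126 (Dhx9.1241 replicate 1) to 497 (control replicate 1) higher and from 70 (Dhx9.1241 replicate 3) to 399 (control replicate 1) lower, and every such fit moved at least 1 of the counts by over 1.5 times. In the wider lists the 3 calls became 5 in that robust fit, 6 when arrays were weighted and 1 to 4 without 1 array. With the replicate block, 172 genes were higher, 92 lower and 1 list gene was called, Kynu; Gstm1 (adjusted p = 0.0904) and Parp14 (0.154) were lost. The deviations of same-numbered arrays from their group means had correlations of -0.271, -0.339 and 0.239. The highest of any combination was 0.48, for control replicate 1 with Dhx9.1241 replicate 2. Deviations from a mean of only 3 arrays constrain each other, so these values cannot settle whether the numbers mark pairs. The main fit did not treat them as pairs. The depth of an array is not defined, and signal over background is unknown here.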
